A study of Mus musculus with 12 samples.

Results

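The Schlafen genes of the mouse were followed through naive and effector CD4+ T cells of wild-type (WT) mice and of mice lacking Rinl (KO). The 7 genes Slfn1, Slfn2, Slfn3, Slfn4, Slfn5, Slfn8 and Slfn9 were taken by symbol from a table of 55487 genes; the rule uses no measured value, although the family was chosen with earlier results of these data known. All 7 were counted, and all 7 passed the filter on low counts that left 15905 genes for testing. Rinl encodes a member of the RIN-like family of guanine nucleotide exchange factors for RAB5 GTPases, which act in endocytosis. CD4+ T cells came from spleen and peripheral lymph nodes. Naive cells were sorted as CD44lo and effector cells as CD44hi, among other gates, from WT and from KO mice, with 3 libraries in each of the 4 groups and 12 in all. The sources used here do not state the kind of Rinl allele, the strain, age or sex of the mice, or how many mice gave each library. P-values therefore measure the spread between libraries, which may be partly technical.

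Schlafen proteins take their name from the German word for sleep, because the first members were found as genes that change during thymocyte development and slow the growth of T cells when overexpressed. A mouse line with a mutant Slfn2 (elektra) has T cells that do not hold the quiescent state and are lost after activation, and Slfn2 is known to protect tRNAs from stress-induced cleavage in T cells. The family is also known for induction by type I interferon and, for several longer members in mouse and human, for cutting or binding tRNA. Mouse members fall into short, intermediate and long classes: all share a conserved core, and only the long class carries a helicase-like C-terminal part.

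In the deposited gene models (GRCm38), the 7 genes formed one cluster on chromosome 11 from 82951349 to 83215154, a span of 263806 bases. In the longest coding transcripts of the annotation, the short members Slfn1 and Slfn2 had 337 and 378 codons. The intermediate members Slfn4 and Slfn3 had 602 and 640 codons, and the long members Slfn5, Slfn8 and Slfn9 had 884, 910 and 910. Along the chromosome the order was Slfn5 (82951349 to 82964840, plus strand), Slfn9 (82978390 to 82991830, minus strand), Slfn8 (83002158 to 83020810, minus strand), Slfn2 (83065112 to 83070678, plus strand), Slfn1 (83116849 to 83122670, plus strand), Slfn4 (83175186 to 83190216, plus strand) and Slfn3 (83191330 to 83215154, plus strand). The pseudogene Slfn10-ps lay between Slfn8 and Slfn2 (83028130 to 83040042, minus strand). The map of the cluster shows the genes with their changes between the cell types.

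**Figure D1:**
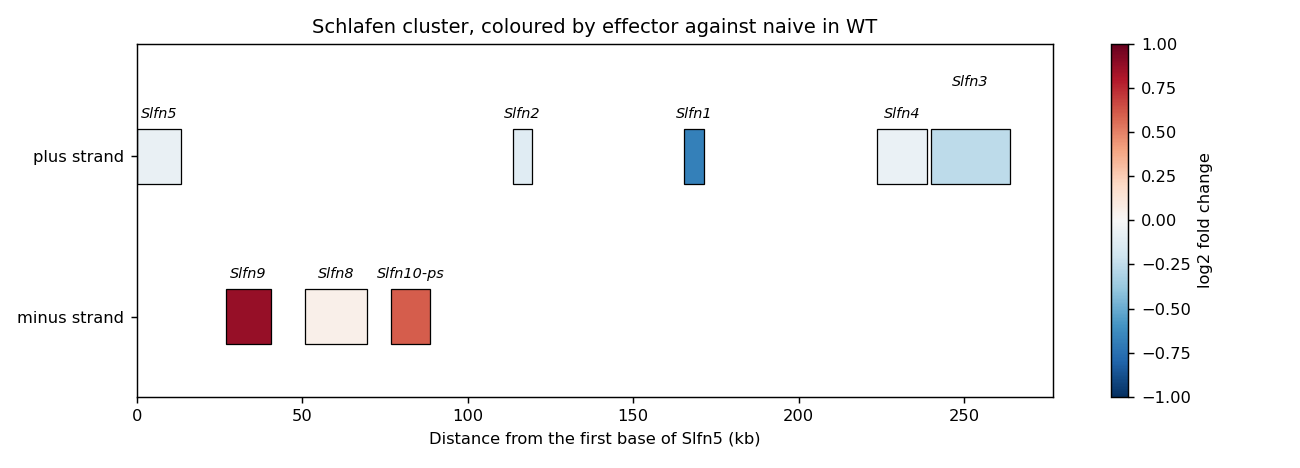
The Schlafen cluster on mouse chromosome 11, drawn to scale as distance in kilobases from the first base of Slfn5, with plus-strand genes in the upper row and minus-strand genes in the lower. The colour is the log2 fold change of effector against naive cells in WT: Slfn9 (0.87) and Slfn10-ps (0.60) are red, Slfn1 (-0.69) is blue, and Slfn8 (0.06), which lies between the red pair, is nearly white.

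The stretches just upstream of the members' starts are shown because the long and the shorter genes differed there in which short motifs they held. They were read from RefSeq (GRCm38.p6), which had a promoter window for each of the 7 genes, and each is written 5′ to 3′ on its gene's own strand. For the long members, capitals mark a match to the 10-base motif GAAA, any 2 bases, GAAA on either strand, the core of the interferon-stimulated response element that the transcription complex activated by type I interferon binds. The Slfn5 stretch is chr11:82951892-82951981 (plus strand, 210 to 121 bases before its RefSeq start, inside an intron of a short non-coding transcript of the gene in the annotation). The Slfn8 stretch is chr11:83020811-83020910 (minus strand, before the outer of its 2 RefSeq starts) and the Slfn9 stretch is chr11:82991831-82991930 (minus strand).
Slfn5: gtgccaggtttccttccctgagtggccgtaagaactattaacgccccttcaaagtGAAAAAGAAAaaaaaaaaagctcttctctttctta
Slfn8: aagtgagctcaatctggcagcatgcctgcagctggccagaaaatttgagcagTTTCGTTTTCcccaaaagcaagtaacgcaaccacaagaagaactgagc
Slfn9: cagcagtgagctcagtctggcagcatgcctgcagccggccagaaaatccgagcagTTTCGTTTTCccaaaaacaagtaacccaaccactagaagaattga

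The match lay 155 bases before the start of Slfn5, 48 before the outer start of Slfn8 and 45 before that of Slfn9. In windows of 300 bases around the starts, this motif was present in 1079 of 27025 genes of the RefSeq table, or 3.993%, and in these 3 of the 7 members. The Slfn8 and Slfn9 copies read TTTCGTTTTC in each case. The 250 bases upstream of both genes were 80.0% identical (204 of 255 aligned positions), so their matches should not be counted as separate observations. Every other pair of members had an identity between 42.5% and 49.1%.

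The short and intermediate members had no such match in this window but held another word, ACTTCCTGG, which was noticed in the printed sequences and then searched for on both strands. Its TTCC is the reverse complement of GGAA, the core that ETS family factors bind. Capitals mark it in the 100 bases before the start of Slfn1 (chr11:83116720-83116819, plus strand), Slfn2 (chr11:83065012-83065111, plus strand), Slfn3 (chr11:83191230-83191329, plus strand) and Slfn4 (chr11:83175086-83175185, plus strand).
Slfn1: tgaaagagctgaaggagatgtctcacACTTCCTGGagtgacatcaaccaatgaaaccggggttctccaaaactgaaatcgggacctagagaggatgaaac
Slfn2: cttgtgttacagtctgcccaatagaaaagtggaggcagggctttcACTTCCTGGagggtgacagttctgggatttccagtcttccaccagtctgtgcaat
Slfn3: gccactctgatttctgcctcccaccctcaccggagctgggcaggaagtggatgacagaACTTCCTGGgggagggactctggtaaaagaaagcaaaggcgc
Slfn4: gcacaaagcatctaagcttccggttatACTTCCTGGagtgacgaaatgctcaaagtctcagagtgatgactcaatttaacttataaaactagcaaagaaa

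The word stood 74, 55, 42 and 73 bases before the starts of Slfn1, Slfn2, Slfn3 and Slfn4, on the gene's own strand in all 4. It was present in 270 of 27025 genes, or 0.999%, and in none of the windows of the 3 long members. In Slfn1 and Slfn4 the shared letters ran on as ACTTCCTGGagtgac, so the copies in these related genes may not be separate observations. A motif match is a description of letters in a window, and since the word was picked from these sequences its presence in them is no test.

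The libraries held 11606251 to 24320247 counts each, and pairs of libraries within a group were not the same beyond counting error (chi-square per gene between 2.18 and 5.74). Rinl averaged 294 CPM in WT naive and 33.0 CPM in KO naive libraries (CPM, counts scaled to the library size after TMM normalisation), and 450.04 CPM in WT effector and 47.6 CPM in KO effector libraries, log2 fold changes of -3.16 ± 0.049 and -3.24 ± 0.049 that match the genotype labels. Cd44 averaged 18.8 CPM in WT naive and 257 CPM in WT effector cells in the order the gates set. The 8 CD4 T cell markers summed to 4717 to 5245 CPM over all 12 libraries. Of the other cell types, the 8 NK cell genes summed to 51.9 to 59.0 CPM in naive and 132 to 226 CPM in effector libraries, and the 2 CD8 genes to 19.5 to 21.8 CPM and 5.52 to 8.04 CPM. Nearly all of the CD8 sum was Cd8b1, at 19.7 CPM on average in WT naive and 6.01 CPM in WT effector cells. Cd8a averaged 0.353 and 0.135 CPM in the same groups. The 12 B cell genes summed to 571 to 629 CPM in naive and 942 to 1356 CPM in effector libraries, and the 14 myeloid genes to 30.6 to 60.3 and 45.0 to 83.3 CPM. Their part in the differences between the cell types was not tested. In bulk samples, fewer cells of a type and less RNA per cell cannot be told apart.

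The short members dominated the family. Compared per unit of gene length (FPKM, counts scaled by gene length and library size), Slfn2 was the highest of the 7 in every group, at 290.2 ± 4.78 in WT naive, 298 ± 6.57 in KO naive, 267 ± 2.68 in WT effector and 275 ± 15.6 in KO effector cells (SD, n = 3 here and below). Slfn1 followed at 220.2 ± 1.296, 233 ± 7.77, 137 ± 0.988 and 141 ± 6.94 FPKM in the same order of groups. The long members Slfn8 and Slfn5 came next, with Slfn8 at 48.6 ± 2.27, 56.1 ± 1.77, 50.7 ± 0.849 and 56.1 ± 1.93 FPKM. Slfn5 stood at 44.5 ± 1.32, 49.2 ± 2.28, 42.4 ± 1.62 and 47.9 ± 3.10 FPKM. In each group the libraries of these 4 genes kept this order without overlap, from Slfn2 down to Slfn5.

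Slfn3, Slfn9 and Slfn4 were far lower, at 1.85 to 6.62 FPKM over all libraries. Slfn3 was the highest of them in naive cells, at 6.30 ± 0.128 FPKM in WT and 6.05 ± 0.601 in KO. In effector cells Slfn9 stood beside it, at 5.34 ± 0.381 against 5.26 ± 0.304 FPKM for Slfn3 in WT and 5.99 ± 0.309 against 6.06 ± 0.335 in KO, and the libraries of the 2 genes overlapped in both genotypes. Slfn4, a member best known from macrophages and other myeloid cells, was lowest, at 2.40 ± 0.257, 2.75 ± 0.287, 2.32 ± 0.0886 and 2.32 ± 0.453 FPKM. In KO naive cells its libraries overlapped those of Slfn9.

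**Figure D2:**
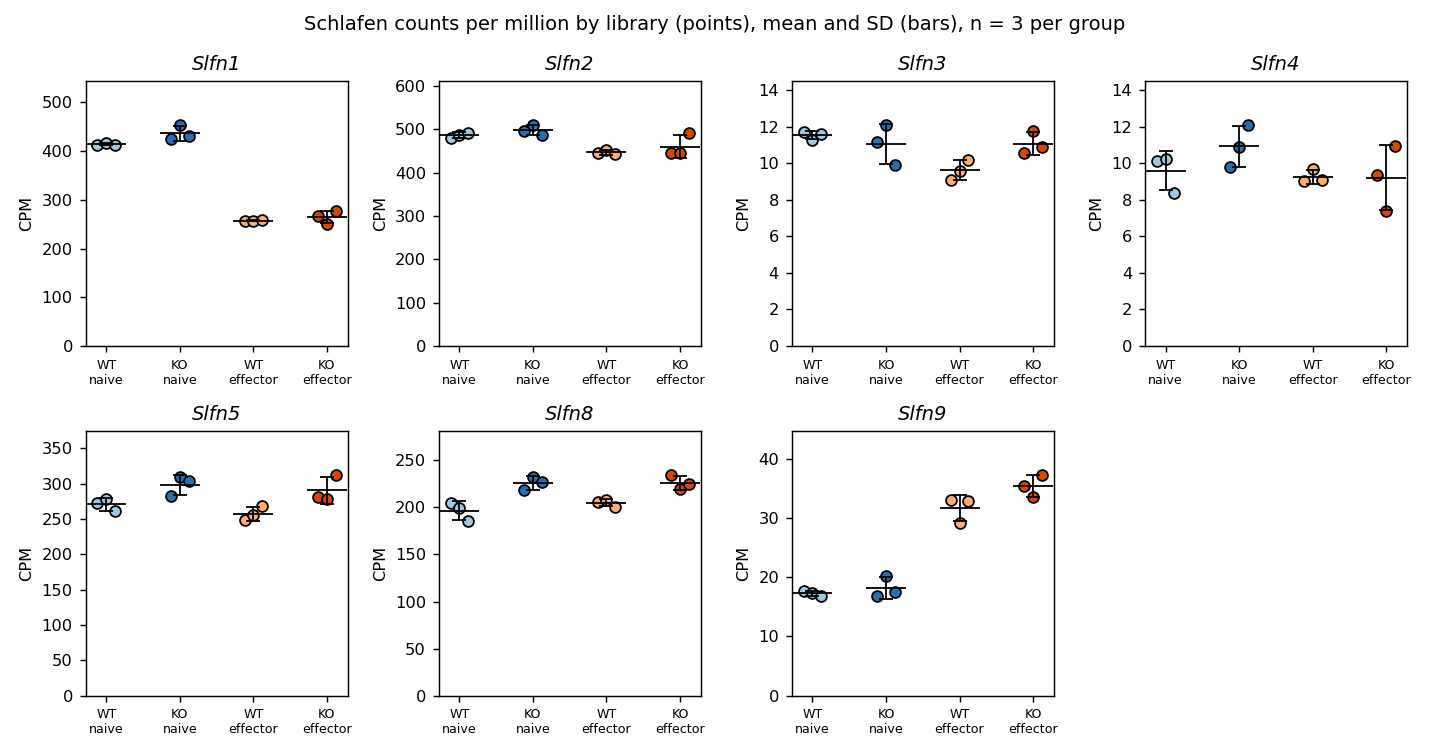
Level of each Schlafen gene in CPM (vertical axes from 0, one panel for each gene), with a point for each library and lines for the mean and SD of the 3 libraries of a group. In the Slfn1 panel all effector points lie at 251 to 277 CPM and all naive points at 412 to 453, in the Slfn9 panel the order is the opposite, and in the Slfn8 panel the KO points lie above the WT points of the same cell type.

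Summed over the 7 genes, the family stood at 615 ± 3.70 FPKM in WT naive, 649 ± 17.3 in KO naive, 509.997 ± 1.36 in WT effector and 535 ± 25.3 in KO effector cells. The share of Slfn1 in this sum was 35.8% in WT naive and 26.9% in WT effector cells, and 36.0% and 26.4% in KO. The share of Slfn2 was 47.2% and 52.3% in WT and 46.0% and 51.4% in KO. Slfn8 and Slfn5 took 7.90% and 7.23% of the sum in WT naive cells and 9.94% and 8.31% in WT effector cells. Effector libraries thus carried a smaller part of Slfn1, and parts of one sum cannot move independently.

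**Figure D3:**
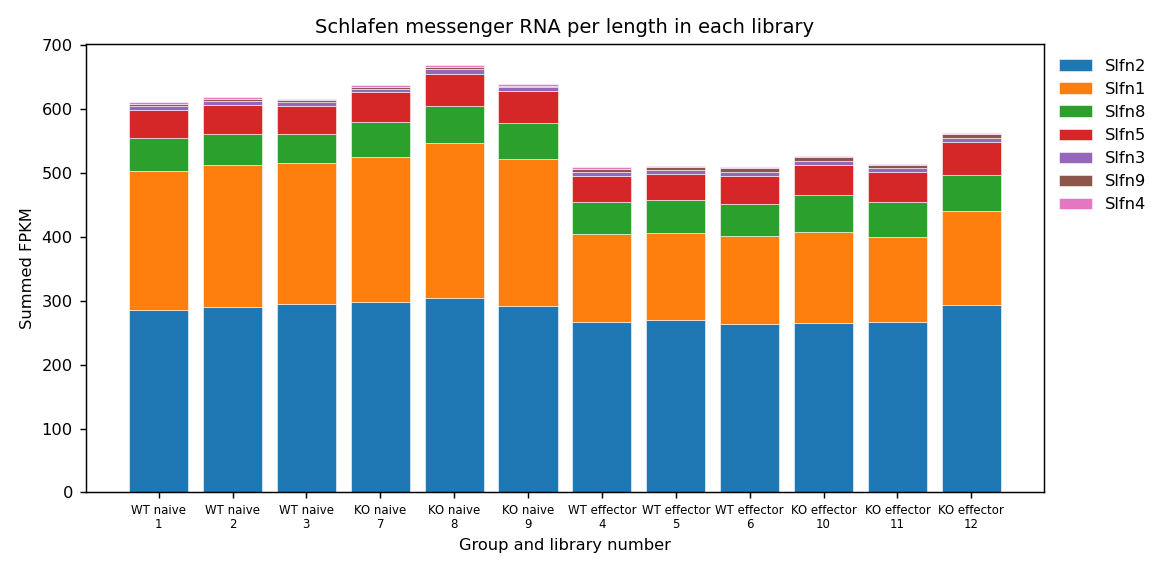
Summed FPKM of the 7 Schlafen genes as stacked bars from 0, with a bar for each of the 12 libraries, labelled by group and library number, and a colour for each gene. Slfn2 and Slfn1 make up most of every bar, and the naive bars (611 to 669 FPKM) are taller than the effector bars (509 to 563), mostly by their Slfn1 part.

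Between naive and effector cells the members moved in opposite directions: Slfn1 fell to 0.622 of its naive level in WT, Slfn9 rose 1.83-fold, and the long genes Slfn5 and Slfn8 did not pass the test. In WT, 1 of the 7 members was higher and 3 were lower in effector cells. Over all 15905 tested genes, 30.2% were called higher and 25.9% lower in this comparison (edgeR quasi-likelihood test, Benjamini-Hochberg adjusted p at 0.05). In KO, 1 member was higher and 2 were lower, beside 31.6% and 26.8% of all tested genes. With so many genes called, the members' counts lie near the background. The median log2 fold change of the members was -0.07 in WT and -0.04 in KO, beside 0.0064 and 0.0085 over all tested genes.

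Slfn1, whose overexpression restrains T cell growth, read 412, 416 and 413 CPM in the WT naive libraries and 257, 256 and 258 CPM in the WT effector libraries. In KO it read 426, 453 and 431 CPM in naive and 266, 251 and 277 CPM in effector libraries. Every naive library was above every effector library in both genotypes. The log2 fold change was -0.69 ± 0.044 (SE) in WT, with an adjusted p of 2.3e-12, and -0.72 ± 0.044 in KO, with an adjusted p of 6.7e-13 (edgeR). It was the largest fall in the family.

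Slfn2, the quiescence factor, moved in the same direction by much less. Its levels were 479.7, 488 and 492 CPM in WT naive and 446, 453 and 443 CPM in WT effector libraries. In KO they were 497, 509.7 and 487 CPM in naive and 444, 446 and 491 CPM in effector libraries. The WT libraries of the cell types did not overlap, and in KO the highest effector library lay inside the naive range. The log2 fold change was -0.12 ± 0.044 in WT (edgeR adjusted p = 0.022) and -0.11 ± 0.044 in KO (0.029), or 0.919 and 0.923 of the naive level. Without library 3 or library 6 the adjusted p in WT was 0.070 or 0.056, and in KO the call was lost without library 8, 10 or 11.

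Slfn9, a long member and the closest relative of Slfn8, was the one gene of the family that was higher in effector cells. It read 17.7, 17.3 and 16.8 CPM in WT naive and 33.0, 29.1 and 32.8 CPM in WT effector libraries. In KO it read 16.8, 20.2 and 17.5 CPM in naive and 35.3, 33.6 and 37.3 CPM in effector libraries. All 6 effector libraries were above all 6 naive ones. The log2 fold change was 0.87 ± 0.082 in WT (edgeR adjusted p = 2.2e-09) and 0.95 ± 0.077 in KO (1.5e-10).

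The pseudogene Slfn10-ps rose as well, by 0.60 ± 0.076 on the log2 scale in WT (edgeR adjusted p = 3.2e-07) and 0.65 ± 0.073 in KO (4.4e-08). Slfn9, Slfn8 and Slfn10-ps share sequence: 8.10% of the 50-base words of Slfn9 transcripts also occur in Slfn10-ps and 6.52% in Slfn8. Of the words of Slfn8, 10.1% occur in Slfn10-ps and 9.3% in Slfn9. Slfn8 held 45588 counts over all libraries, beside 5300 for Slfn9 and 5976 for Slfn10-ps. The sources used here do not state how reads matching several genes were counted, so the values of these genes are uncertain by the reads they could share. Slfn8 itself read 205, 199 and 186 CPM in WT naive and 206, 208 and 201 CPM in WT effector libraries, and these overlapped. Its log2 fold change was 0.06 ± 0.046 in WT (edgeR adjusted p = 0.29; 95% interval -0.04 to 0.15), an interval that ends below that of the Slfn9 change.

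Slfn5, an interferon-induced nuclear member, had a log2 fold change of -0.07 ± 0.051 in WT (adjusted p = 0.23) and -0.04 ± 0.050 in KO (0.52; edgeR), and its naive and effector libraries overlapped in both genotypes. Slfn3 read 11.7, 11.3 and 11.6 CPM in WT naive and 9.09, 9.55 and 10.2 CPM in WT effector libraries, without overlap. Its log2 fold change was -0.26 ± 0.10 in WT (edgeR adjusted p = 0.037) and 0.00 ± 0.099 in KO (0.98). The WT call was made in 7 of 14 alternative analyses and in 1 of the 6 that left out a library, with adjusted p from 0.016 to 0.12, and the 2 fold changes were not shown to differ (log2 difference 0.27, 95% interval -0.03 to 0.56, edgeR adjusted p = 0.60). Slfn4 had log2 fold changes of -0.07 ± 0.13 in WT (adjusted p = 0.69) and -0.27 ± 0.13 in KO (0.072; edgeR). In KO, Slfn4 was not called in the reported analysis but was called lower in 4 of 14 alternatives. Of the 50-base words of Slfn3 transcripts, 16.0% also occur in another gene, 7.39% in Slfn4 and 6.45% in the neighbouring gene model Gm11427. Gm11427 averaged 9.66 CPM in WT naive and 12.8 CPM in WT effector cells. Slfn4 also shares words with Slfn2, 1.72% of the Slfn4 words and 4.27% of the Slfn2 words. Slfn2 held 100732 counts over all libraries, beside 2079 for Slfn4. The values of Slfn3 and Slfn4 are therefore uncertain by shared reads too. At about 10 CPM, Slfn3 and Slfn4 had the widest intervals of the family.

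**Figure D4:**
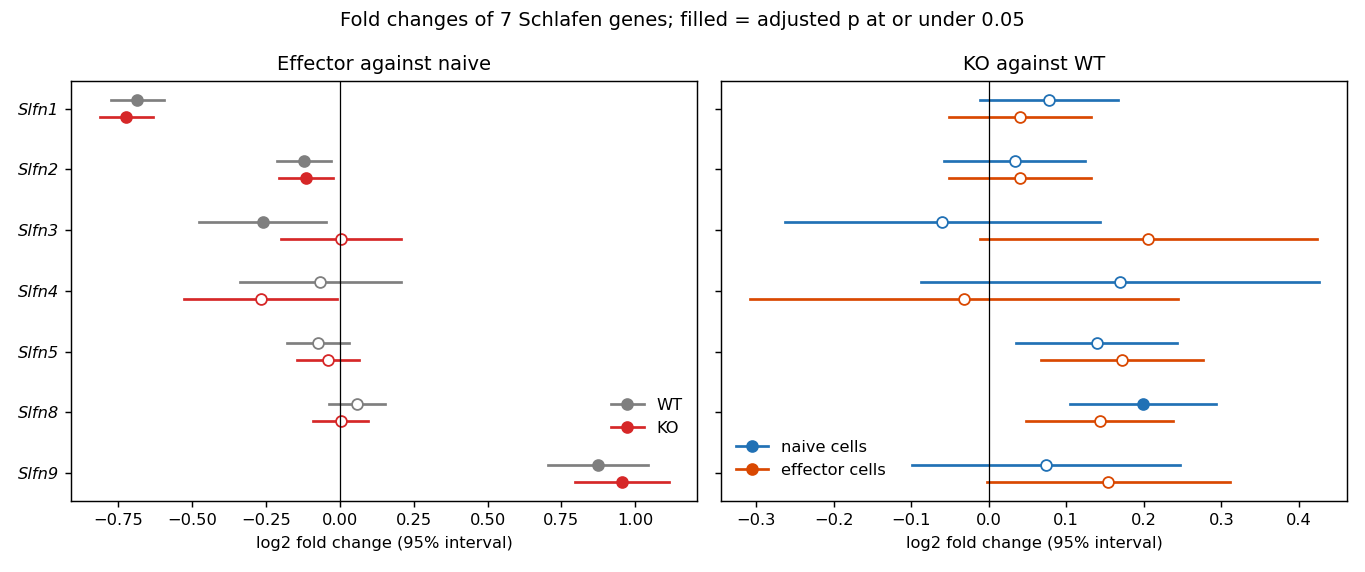
Log2 fold change of the 7 Schlafen genes with 95% intervals, effector against naive cells in WT and KO on the left and KO against WT in naive and effector cells on the right, with filled points where the adjusted p was at or under 0.05. On the left Slfn1 (-0.69 and -0.72) and Slfn9 (0.87 and 0.95) stand apart from 0, and on the right Slfn8 in naive cells (0.20) is the one filled point.

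Lists of genes from the processes in which Schlafen proteins act were read beside all tested genes, of which 56.2% were called in either direction between naive and effector cells in WT and 58.4% in KO. Of 22 regulators of T cell quiescence, 4 were higher and 13 lower in WT effector cells, with a median log2 fold change of -0.33. Lef1, a transcription factor of naive T cells, fell by 2.26 on the log2 scale, Bach2 by 2.03 and Pik3ip1, an inhibitor of PI3K, by 1.62. Of 22 proliferation genes, 16 were higher and 3 lower, with a median of 1.22, and Mki67 rose from 2.33 to 68.0 CPM. Of 25 interferon-induced genes, 15 were higher and 6 lower, with a median of 0.32: Oas1a, a sensor of double-stranded RNA, rose by 1.51 on the log2 scale and its relative Oas2 fell by 1.80. Of 19 genes of interferon signalling, 11 were higher and 4 lower, with a median of 0.14. Of 10 genes of tRNA cleavage and repair, 3 were higher and 4 lower, with a median of -0.10. Ang, which encodes the tRNA-cutting ribonuclease angiogenin, rose from 0.0705 to 1.79 CPM. Rnh1, its inhibitor, rose by 0.87 on the log2 scale, and Rtcb, the tRNA ligase, fell by 0.29. In KO the counts were 5 higher and 12 lower for quiescence, 15 and 3 for proliferation, 15 and 4 for interferon-induced genes, 7 and 5 for interferon signalling and 2 and 2 for tRNA genes.

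In KO cells the long members Slfn5 and Slfn8 lay slightly above WT. Slfn8 was 1.15-fold higher in KO than in WT naive cells, the one member that passed the test in either KO comparison. In naive cells 1 member was called higher and 0 lower, beside 0.679% and 0.497% of all tested genes. In effector cells 0 were called in either direction, beside 1.45% called higher and 1.72% lower (edgeR). At an unadjusted p under 0.05, 2 of the 7 members passed in each cell type, Slfn5 and Slfn8, all of them higher in KO, beside 11.9% of all tested genes in naive and 16.1% in effector cells in either direction. In effector cells DESeq2 called 1 member, Slfn5, and limma-voom 0. The median log2 fold change of the members was 0.08 in naive and 0.14 in effector cells, beside 0 and 0.0022 over all tested genes, and 6 of 7 were above 0 in each, beside 49.9% and 50.7% of all tested genes.

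Slfn8, whose close relatives cut tRNA, read 205, 199 and 186 CPM in WT naive and 218, 232 and 227 CPM in KO naive libraries. Every KO library was above every WT library. The log2 fold change was 0.20 ± 0.045 (95% interval 0.11 to 0.29; edgeR adjusted p = 0.026). In effector cells Slfn8 read 206, 208 and 201 CPM in WT and 235, 219.5 and 224 CPM in KO libraries, again without overlap, with a log2 fold change of 0.14 ± 0.046 and an edgeR adjusted p of 0.095. The naive call was made in 8 of 14 alternative analyses: it was lost with limma on log2(FPKM + 1) and log2(FPKM + 0.1) (adjusted p = 0.085 and 0.074) and without library 2, 3, 8 or 9.

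Slfn5 showed the same order. Its WT naive libraries read 273, 278 and 261 CPM and its KO naive libraries 283, 309 and 303 CPM, without overlap, for a log2 fold change of 0.14 ± 0.050 (edgeR adjusted p = 0.22). In effector cells it read 249, 255 and 268 CPM in WT and 280.4, 279 and 312 CPM in KO, without overlap, for a log2 fold change of 0.17 ± 0.051 (adjusted p = 0.065, edgeR). In effector cells 3 of 14 alternatives called it: DESeq2 (adjusted p = 0.037), edgeR without the filter on low counts (0.014) and edgeR without library 10 (0.045).

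Counting members whose KO libraries all lay above all WT libraries gave 3 in naive cells (Slfn1, Slfn5 and Slfn8), where 10.7% of all tested genes did so, and 4 in effector cells (Slfn3, Slfn5, Slfn8 and Slfn9), where 9.18% did. No member lay entirely below in either cell type. The log2 fold changes of the short members were small: 0.08 ± 0.043 in naive and 0.04 ± 0.044 in effector cells for Slfn1, and 0.03 ± 0.044 and 0.04 ± 0.044 for Slfn2. Their 95% intervals ended at 0.17 and 0.13 for Slfn1 and at 0.12 and 0.13 for Slfn2. Slfn3 stood at -0.06 ± 0.098 and 0.21 ± 0.10, Slfn4 at 0.17 ± 0.12 and -0.03 ± 0.13, and Slfn9 at 0.07 ± 0.084 and 0.15 ± 0.076. None of these passed the test (edgeR adjusted p from 0.32 to 0.94).

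A difference in KO effect between the cell types was not detected for any member: 0 of 7 were called, beside 0.145% of all tested genes, with 0 at an unadjusted p under 0.05 and 0 by DESeq2 and by limma-voom. The differences ran from -0.20 for Slfn4 to 0.27 for Slfn3 on the log2 scale, with edgeR adjusted p from 0.60 to 0.99.

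Part of the interferon-induced genes, a class that includes several Schlafen genes, were higher in KO cells. Of the 25 on the list, 10 were higher, 0 lower and 15 not called in KO naive cells, beside 0.679% of all tested genes called higher, with a median log2 fold change of 0.27; 0 were lower at an unadjusted p under 0.05, by DESeq2 or by limma-voom. On the log2 scale Ifit1, an antiviral RNA-binding protein, rose by 0.46, Oasl2 by 0.48 and Zbp1, which senses nucleic acids, by 0.27. In effector cells 16 were higher, 0 lower and 9 not called, beside 1.45% called higher, with a median of 0.30 (0 lower at an unadjusted p under 0.05 or by the other tools). Oasl2 rose by 0.65 and Ifi44 by 1.02 on the log2 scale there. Of 19 genes of interferon signalling, 4 were higher and 0 lower in each cell type (lower at an unadjusted p under 0.05, 0 in naive and 2 in effector cells; 0 by DESeq2 and limma-voom). Usp18, a brake on the receptor, rose by 0.46 on the log2 scale in naive and 0.67 in effector cells. The log2 fold changes of Slfn8 (0.20 and 0.14) and Slfn5 (0.14 and 0.17) were below the medians of the interferon-induced genes.

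**Figure D5:**
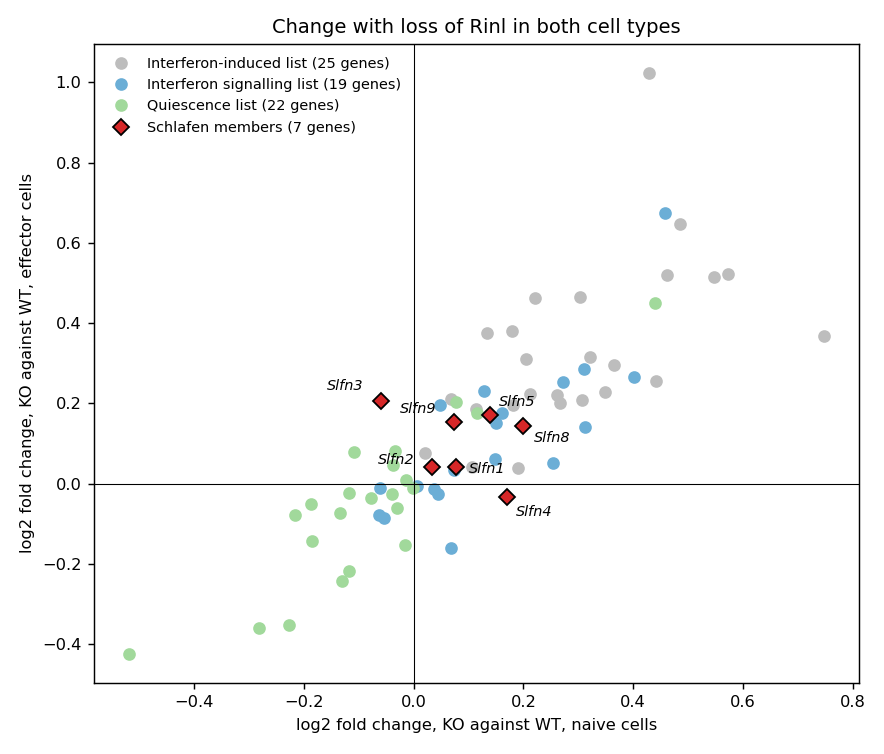
Log2 fold change of KO against WT in naive cells (horizontal) and effector cells (vertical) for the 7 Schlafen genes and for 3 lists, with a point for each gene. Slfn5 and Slfn8 lie to the upper right of 0, at the lower end of the interferon-induced genes, and Slfn1 and Slfn2 lie close to 0.

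Of the quiescence regulators, 0 were higher and 3 lower in KO naive cells and 0 and 2 in KO effector cells (edgeR). At an unadjusted p under 0.05, 0 and 1 were higher. DESeq2 called 0 higher in both and 4 lower in naive and 5 in effector cells, and limma-voom 0 higher in both and 3 and 1 lower. Il7r, the interleukin-7 receptor chain, fell by 0.52 and 0.42 on the log2 scale and Pik3ip1 by 0.23 and 0.35, and Foxp1 fell by 0.22 in naive cells. Of the 22 proliferation genes, 0 were called in either KO comparison by edgeR, DESeq2 or limma-voom, with 2 (naive) and 5 (effector) lower at an unadjusted p under 0.05. Of the 10 genes of tRNA cleavage and repair, 0 were called by these tools and 0 had an unadjusted p under 0.05.

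Sums of markers of other cell types differed between the genotypes in part, although few single markers were called. The 14 myeloid genes summed to 30.6 to 44.0 CPM in WT naive and 46.6 to 60.3 CPM in KO naive libraries, without overlap, and to 45.0 to 72.3 and 57.4 to 83.3 CPM in effector libraries. Much of this was Cst3, at 27.1 and 27.6 CPM on average in naive WT and KO, while Lyz2 averaged 2.25 and 8.93 CPM. The Lyz2 libraries were widely spread, at 0.316 to 5.47 CPM in WT naive and 7.25 to 11.5 CPM in KO naive. Of the 11 myeloid genes tested, 0 were called in either KO comparison (edgeR). At an unadjusted p under 0.05, 4 were higher and 0 lower in naive cells, and 0 passed in effector cells. The 12 B cell genes, mostly Ighm, summed to 599 to 624 and 571 to 629 CPM in naive and 942 to 1116 and 1122 to 1356 CPM in effector WT and KO libraries. Of the 9 tested, 0 were called in naive cells, and 1 was called lower and 0 higher in effector cells (edgeR). At an unadjusted p under 0.05, 5 were higher and 0 lower in naive cells, and 3 higher and 1 lower in effector cells. The 8 NK cell genes summed to 54.0 to 57.4 CPM in WT naive and 51.9 to 59.0 CPM in KO naive libraries. Most of this was Prf1, at 48.8 and 46.9 CPM on average. In effector libraries the NK cell genes summed to 194 to 226 CPM in WT and 132 to 174 CPM in KO. Of the 7 tested, 0 were called in naive cells, with 3 higher and 0 lower at an unadjusted p under 0.05 (edgeR). In effector cells 2 were called lower and 0 higher, with 5 lower and 0 higher at an unadjusted p under 0.05. Of all these markers, Klra8 alone was at 0 in a whole group, WT naive. Their part in the KO results of the Schlafen genes was not tested. Slfn4, the member known from myeloid cells, overlapped between WT and KO in both cell types. It read 10.2, 10.3 and 8.37 CPM in WT naive and 9.80, 10.9 and 12.1 CPM in KO naive libraries. The 95% intervals of its log2 fold change were wide, -0.09 to 0.43 in naive and -0.31 to 0.24 in effector cells. Its relation to the myeloid markers was not tested.

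Across the 12 libraries the members did not follow one profile. Slfn1 and Slfn2 had a Pearson r of 0.870 on log2 CPM, Slfn5 and Slfn8 of 0.699, and Slfn1 and Slfn9 of -0.946. These values describe 12 libraries that fall into the 4 groups and share depth and scaling. Among 10995 genes, the profile of Slfn1 was most like those of Gm14165, Itga6 and Gm13680 (r of 0.996 for each) and that of Slfn9 most like Gm3636, Plcl1 (both 0.992) and Ube2l6 (0.991). Slfn2 was most like Suclg2 (0.962), 2410006H16Rik (0.959) and Eif4a1 (0.944). For the other long members the nearest profiles were Irgm1 (0.918), Phf11d (0.913) and Dtx3l (0.880) for Slfn8, and Yars2 (0.890), Smarca5 (0.884) and Irf9 (0.882) for Slfn5. Irgm1 encodes an interferon-inducible GTPase and Irf9 the DNA-binding part of the type I interferon complex. Slfn3 was nearest to Tbpl1 (0.877), Mkks (0.854) and Tor1aip2 (0.822), and Slfn4 to Rars (0.946), Strap (0.895) and Pcca (0.870).

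Genes around the cluster were described in the same way. Within 500 kb of its ends, 24 genes outside the 7 members were tested, and 12 were higher and 7 lower in WT effector cells, or 79.2%, with 10 and 5 (62.5%) in KO, beside 56.2% and 58.4% of all tested genes. These 24 include Slfn10-ps and Gm11427, which share sequence with members and were both called higher in effector cells in WT and KO. In the KO comparisons 1 of the 24 (4.17%) was called in each cell type, beside 1.18% of all tested genes in naive and 3.16% in effector cells, and it was Ccl5 each time, a chemokine of effector cells. Ccl5 averaged 0.415 CPM in WT naive and 1.52 CPM in KO naive cells, and 268 and 206 CPM in effector cells. Of the other rows named Slfn, Slfn14 held 2 counts over all libraries, Slfn5os 17 and Slfnl1, on chromosome 4, 14, and none was tested. An antisense gene model, Gm20234, overlaps Slfn2 and held 641 counts beside 100732 for Slfn2, and Slfn5os overlaps Slfn5, which held 59595. The library kit marks strand, but how the count used strand is not stated in the sources used here.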

How the data were processed

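Poly(A) RNA libraries of sorted CD4+ T cells were made with a stranded kit, per the labels' protocols. For 12 libraries, the deposited tables give raw counts per gene and FPKM, per the file headers. The submitters' processing notes list mm10 and GRCm38 as builds and, as tools, Picard, STAR and DESeq2 1.30.0, without roles. On 11921 genes the deposited FPKM equalled counts divided by a gene length and a size factor, so both tables hold one measurement. Columns were matched to groups by name; libraries 1 to 3 are WT naive, 4 to 6 WT effector, 7 to 9 KO naive and 10 to 12 KO effector.

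Counts were fitted in R 4.3.3 with edgeR 4.0.16 (filterByExpr, TMM factors of 0.968 to 1.04, robust quasi-likelihood, a coefficient per group), and p-values were adjusted over 15905 genes by Benjamini-Hochberg at 0.05. SEs were derived from fold change and F. The fit was also run on simulated counts. The changes seeded there were larger than the KO changes of the members, so that run says nothing on changes as small as theirs. CPM are TMM-scaled. Alternatives were DESeq2 1.42.0 (Wald test and size factors), limma 3.58.1 (voom; log2 FPKM with pseudocounts of 1 and 0.1), other filters, a fit of only the groups compared, and leaving out each library. Likeness is Pearson r of log2 CPM (prior count 2) over genes of at least 5 CPM. Gene structures came from GENCODE M21, promoters from RefSeq; protein sequences were not used here. The members and lists were chosen with earlier results of these data known. Named genes are the members, other Slfn rows, Rinl, Cd44, up to 3 called genes of each list by smallest p, and the 3 nearest profiles. Ccl5, Gm11427 and the marker genes were named after their values were seen. Some items that this rule would name are not reported here.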

Additional observations from a re-analysis of the deposited data

How the results depend on the processing

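Of 525 alternative values for 35 results of single members, 500 kept their side of the threshold, of which 25 uncalled values changed sign; 18 lost the call, 7 gained it and 0 called values reversed; Slfn1 and Slfn9 stayed called between cell types in both genotypes in every one. For the counts, the cause of each shift was not tested. Members called higher with KO in effector cells were 0, but 1 with DESeq2, 1 with no filter and 0 to 1 leaving out a library; in naive cells they were 1, but 0 in both FPKM fits and 0 to 1 leaving out a library. Members called lower in effector cells were 1 to 2 in WT and 1 to 3 in KO leaving out a library, against 3 and 2. Genes called with KO in naive cells, 187 in the reported analysis, were 501 with no filter, 40 and 57 with log2(FPKM + 1) and log2(FPKM + 0.1), 528 with only the groups compared and 66 to 135 leaving out a library. In effector cells, with 503, they were 959, 262, 139, 230 and 194 to 662. For the difference between cell types, with 23, they were 61 with DESeq2, 277 with no filter, 13 and 8 in the FPKM fits and 10 to 85 leaving out a library. Neighbours called in the KO comparisons and their difference were 0% within 250 kb against 4.17%. The shorter motif GAAA, any 2 bases, GAA stood in 9.761% of genes and in the same number of members, 3. No paired analysis was possible because the column names carry no replicate number that matches the titles. Depth limits Slfn4 most, which rested on as few as 101 counts in a library.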
